A study of Arabidopsis thaliana with 24 samples.

Results

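The mitochondrial genome of Arabidopsis thaliana was represented by 146 rows of the deposited count table, out of 33610, chosen because their locus identifier begins with ATMG. The reference annotation used here (RefSeq, TAIR10.1) gives no name to an ATMG identifier directly. Notes on nuclear copies of mitochondrial genes on chromosome 2 cite 53 of the 146, and those notes placed 18 in a named class. Complex I had 3 rows, nad3 (ATMG00990) and parts of nad1 (ATMG01275) and nad2 (ATMG01320), and complex III had 1, cob (ATMG00220). Complex IV had 2, cox3 (ATMG00730) and a cox2-like row (ATMG01280), and complex V had 4, atp1 (ATMG01190), atp6 (ATMG00410), atp8 (ATMG00480) and atp9 (ATMG01080). Cytochrome c maturation had 3, ccmC (ATMG00900), ccmFC (ATMG00180) and ccmFN2 (ATMG00960). Ribosomal proteins had 5, rpl2 (ATMG00560), rpl5 (ATMG00210), rps4 (ATMG00290), rps7 (ATMG01270) and rps12 (ATMG00980). A further 21 were noted as unknown proteins, 8 as the source of a nuclear pseudogene and 6 otherwise. The other 93 had no note and are given by identifier, with no name or role. Further genes of the named classes may lie among them.

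Plant mitochondria keep a small genome that encodes a minority of the subunits of the respiratory chain, of ATP synthase and of the organelle's own ribosome, together with factors that attach haem to cytochrome c. The other subunits are encoded in the nucleus and imported. Phage-type RNA polymerases encoded in the nucleus transcribe it, and transcript abundance depends strongly on RNA processing and stability. The plant genome also holds many open reading frames without an assigned function, some of them chimeras of known genes. In Arabidopsis a large copy of the mitochondrial genome lies in chromosome 2.

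RNA was sequenced from leaves of the ecotypes Castelnuovo-12 from Italy (IT, sub-line 24) and Rodasen-47 from Sweden (SW, sub-line 29), 3 libraries in each of 8 groups. Each ecotype was grown at 100 µmol photons per square metre and second with leaves at 25 °C by day and 20 °C by night (LLW), at the same light with 16 °C and 12.5 °C (LLC), at 1000 µmol with 25 °C and 20 °C (HLW), or at 1000 µmol with 14 °C and 12.5 °C (HLC). All groups had a photoperiod of 9 h, and 2 discs of 0.73 square cm were taken from the youngest fully developed leaf when the 15 h night ended. Ribosomal RNA was depleted before TruSeq libraries were made. The labels call the replicates biological but leave unsaid whether each came from a different plant, and the p-values below refer to the spread among these libraries.

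Library totals ran from 10967425 to 17467653 counts, and plastid rows took 54.8% to 68.0% of them. The leaf label was matched by RBCS1A at 1990 to 6070 counts per 1000000 (CPM) and LHCB1.3 at 1310 to 9970 CPM, while the xylem marker IRX3 stayed at 0.288 to 2.58 CPM and the guard cell marker MYB60 at 0.741 to 4.29 CPM. The other markers were CA1 (mesophyll, 64.3 to 1040 CPM), SUC2 and SEOR1 (phloem, 36.4 to 131 and 0.131 to 18.6 CPM), XCP2 (xylem, 0.131 to 7.08 CPM), and ATML1 and CER1 (epidermis, 6.67 to 25.7 and 0.127 to 73.0 CPM). Several markers moved with HLC against LLW. LHCB1.3 was at 1310 to 4360 CPM in the HLC libraries and 5730 to 9970 CPM in the LLW libraries. The other mesophyll markers overlapped, RBCS1A at 1990 to 5290 against 3290 to 4830 CPM and CA1 at 64.3 to 1040 against 483 to 955 CPM. XCP2 was at 0.131 to 0.648 CPM in the HLC libraries and 1.46 to 3.84 CPM in the LLW libraries, and SEOR1 at 0.131 to 4.05 against 6.20 to 18.6 CPM. IRX3 was at 0.288 to 0.579 against 0.506 to 2.38 CPM, and CER1 at 18.9 to 40.5 against 0.127 to 2.58 CPM. SUC2 was lower in IT_HLC than in IT_LLW and higher in SW_HLC than in SW_LLW. IT_HLC replicate 2 stood apart, with CA1 at 64.3 CPM against 253 or more in every other library and the lowest RBCS1A and LHCB1.3. The part of these markers in the results was not tested.

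The ecotype labels did not follow the nuclear transcripts. QQS, a gene known to affect leaf starch, was at 10.8 to 20.2 CPM in IT_LLC, SW_LLW and SW_LLC and at 3.60 to 8.61 CPM in IT_HLC, and did not exceed 0.144 CPM in the other 4 groups. The immune receptor gene DAR4 was at 19.9 to 32.0 CPM in those other groups, IT_LLW, IT_HLW, SW_HLW and SW_HLC. It did not exceed 0.106 CPM elsewhere, except in IT_HLC replicate 3, which carried 8.49 CPM of DAR4 beside 3.60 CPM of QQS. Directions between ecotypes below are therefore those of the labels, and results that rest on IT_HLC replicate 3 are also given without it. Library codes in addition fall into a series with letters (LLW and HLC) and one with numbers (LLC and HLW), and the light by temperature interaction follows the same split, so these cannot be told apart.

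Reads of the mitochondrial rows and of their chromosome 2 copies were not cleanly separated. Among 32 rows with a copy in the table and at least 10 counts in every library, the copy's count divided by the row's count had a median over libraries between 0.18 and 6.3, with 30 of these medians above 0.5. The copy of atp8 stood at 0.999 to 1.00 of the atp8 count and equalled it in 6 of 24 libraries. The copy of atp1, the alpha subunit of ATP synthase, stood at 1.07 to 1.16. The copy of rpl2 ran from 0.114 to 1.21 of the rpl2 count. Values of the rows with copies are uncertain in that respect, and the sources used here do not give whether counting used strand.

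The mitochondrial rows took between 1.14% (SW_HLW replicate 3) and 3.13% (IT_HLC replicate 3) of all counts. Replicates 1, 2 and 3 stood at 1.62%, 1.65% and 1.40% in IT_LLW, at 1.46%, 1.37% and 1.24% in IT_LLC, at 1.29%, 1.35% and 1.44% in IT_HLW and at 1.88%, 2.12% and 3.13% in IT_HLC. They stood at 1.93%, 2.02% and 2.34% in SW_LLW, at 1.24%, 1.38% and 1.50% in SW_LLC, at 1.52%, 1.48% and 1.14% in SW_HLW and at 1.91%, 1.54% and 1.92% in SW_HLC. The HLC and SW_LLW groups were thus the highest, and every library of SW_LLW and IT_HLC lay above every library of both LLC groups and both HLW groups. In IT the HLC libraries lay above all LLW libraries. In SW every HLC library lay below every LLW library. No test was run on these shares, which are sums over the rows. In bulk tissue, fewer mitochondria or cells and less RNA per cell cannot be told apart.

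Much of this spread lay in ATMG00020 and ATMG01390, which were among the 5 rows of highest mean count together with ATMG00280, ATMG01360 and atp1. Together ATMG00020 and ATMG01390 took 10.6% to 24.8% of the mitochondrial counts in the LLC groups, 23.2% to 31.6% in the HLW groups, 30.4% to 43.8% in the LLW groups and 28.7% to 38.7% in the HLC groups, IT_HLC replicate 3 apart. In that library they took 67.4%, and nuclear ribosomal RNA rows took 7.87% of all counts, the highest of any library. SW_HLW replicate 3, next highest in nuclear ribosomal RNA at 6.12%, had 23.2% in both rows, the lowest of the HLW libraries. Without both rows the mitochondrial share was 0.877% to 1.51% in all libraries. IT_HLC replicate 3 then stood at 1.02%, below the other IT_HLC libraries, and the IT_LLW group mean of 0.962% ± 0.0307 (SD, n = 3) was the lowest. The HLC groups then had means of 1.28% ± 0.249 in IT and 1.14% ± 0.0661 in SW, and the SW_LLW group 1.23% ± 0.0723.

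**Figure D1:**
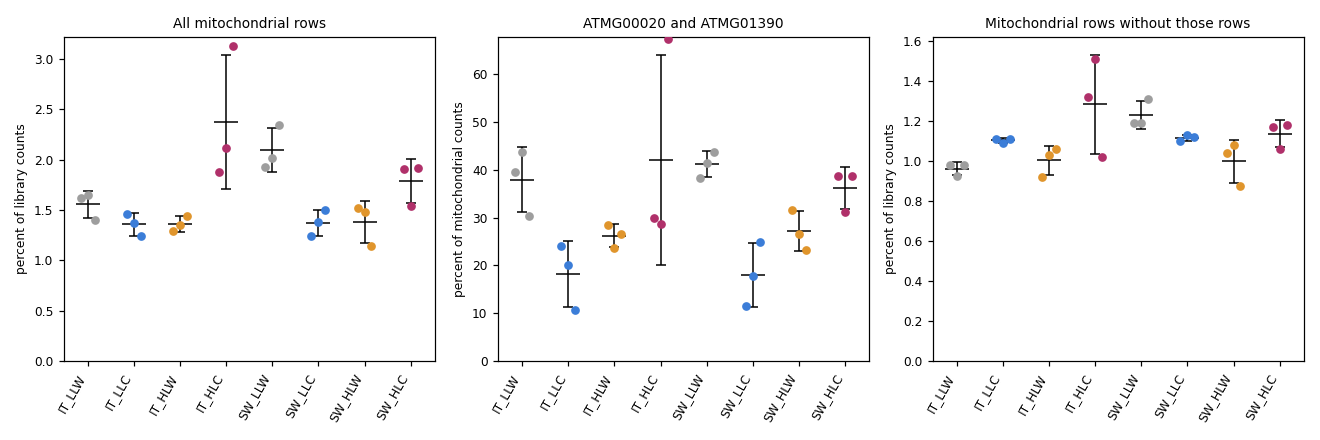
Share of counts per library by group, with points for the 3 replicates and bars for the mean and SD. Left, all mitochondrial rows as percent of the library (1.14% to 3.13%). Middle, ATMG00020 and ATMG01390 as percent of the mitochondrial counts. Right, the remaining mitochondrial rows as percent of the library (0.877% to 1.51%), where IT_HLC replicate 3 no longer stands highest.

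ATMG00280 took 6.86% to 26.9% of the mitochondrial counts. Its chromosome 2 copy is noted as the large chain of rubisco, the carbon-fixing enzyme, and was 97.7% identical to plastid rbcL over 305 bases in TAIR10.1. Reads from the abundant plastid transcript could be counted there, and their part was not tested. The share was highest in the LLC and HLW groups (19.1% to 26.9%) and lower in SW_LLW (9.52% to 13.9%), SW_HLC (13.5% to 15.3%) and IT_HLC (6.86% to 15.5%). IT_LLW was at 16.5% to 19.6%. These shares depend on the denominator, to which ATMG00020 and ATMG01390 contribute much. As a level in the library ATMG00280 ran from 2030 to 3890 CPM, and the groups overlapped more: the LLC libraries were at 2820 to 3140 CPM, while IT_HLC replicate 1 was at 2920 and SW_HLC replicate 3 at 2940 CPM.

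The 18 rows of the named classes held 8.53% to 23.2% of the mitochondrial counts, and 23.4% to 29.7% when ATMG00020 and ATMG01390 were set aside. Within those 18 rows the balance of classes was narrow. The shares are of counts, not corrected for length, so they compare groups and not genes. Each class holds only rows with a note, so its share is not that of a whole complex. Complex V, the ATP synthase, held 54.1% to 60.8%, highest in SW_LLW (60.3% ± 0.716, SD, n = 3) and lowest in SW_HLW (54.8% ± 0.808). Complex IV, which passes electrons to oxygen, held 12.3% to 12.9% in SW_LLW, below every other library, where it ran from 14.1% to 20.0%.

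Complex I, which takes electrons from NADH, had its lowest means in the HLC groups, 4.06% ± 0.116 for IT and 4.26% ± 0.122 for SW. The LLW groups held 4.72% ± 0.397 and 5.01% ± 0.274. The HLC and LLW libraries did not overlap within either label for this class. IT_HLW was also low, at 4.20% to 4.46%, and overlapped SW_HLC at 4.17% to 4.40%. Complex III, here cob alone, held 8.04% to 11.1%, with all SW_LLC libraries at 10.9% or more. Ribosomal protein rows held 8.38% ± 0.484 in IT_LLW and 11.2% ± 0.665 in IT_HLC, without overlap, but 9.09% ± 0.304 in SW_LLW and 8.32% ± 1.24 in SW_HLC, with overlap. Cytochrome c maturation held 1.25% to 5.36% and varied most between replicates, in large part through ccmFC, described below. The rows noted as unknown proteins held only 0.148% to 0.444% of all mitochondrial counts. Rows with no note, which include ATMG00020 and ATMG01390, held 50.4% to 84.2%.

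**Figure D2:**
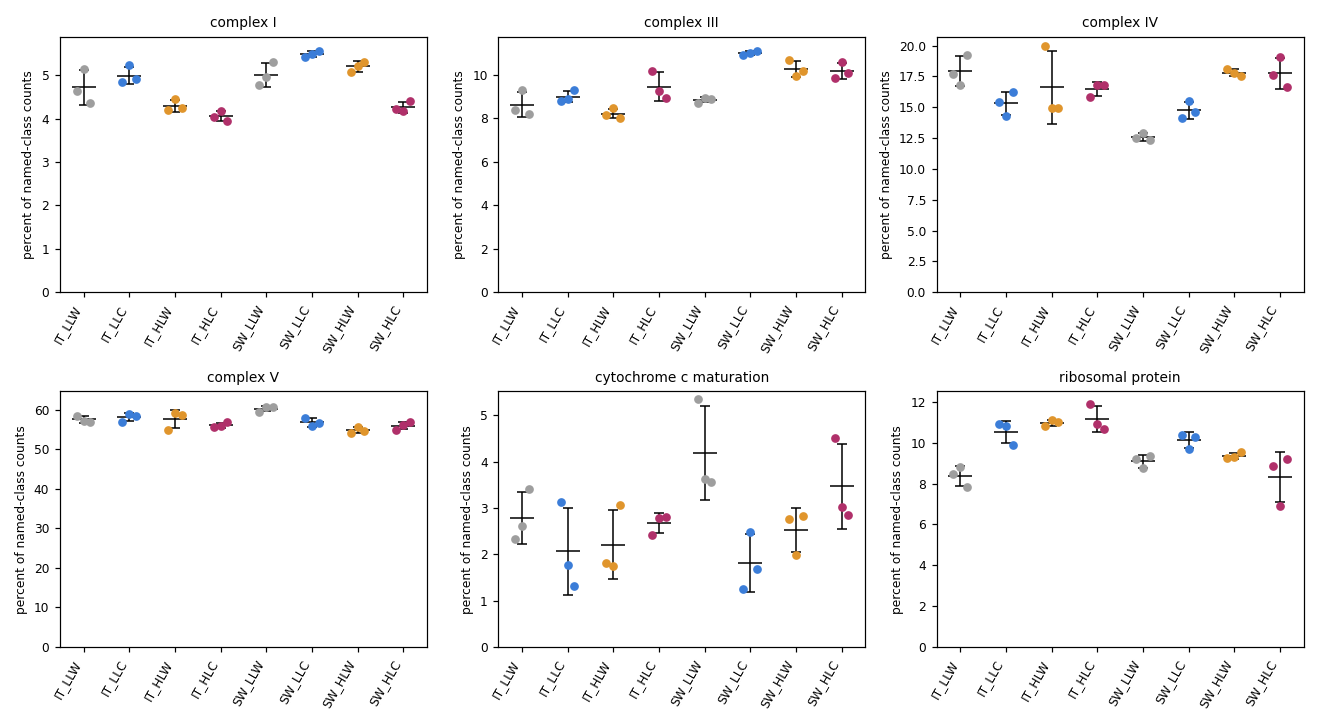
Share of each class in the summed counts of the 18 rows of the named classes, by group; points are libraries, bars the mean and SD. Complex I had its lowest means in the HLC groups, with IT_HLW overlapping SW_HLC. Complex IV was lowest in SW_LLW, and cytochrome c maturation spread widely within groups.

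For single rows the counts were scaled within the mitochondrial rows by TMM, a trimmed-mean normalization, so that a change is a change relative to the other mitochondrial transcripts. Values below are scaled counts per 100000. The low-count filter kept 100 of the 146 rows. Of the 46 left out, 2 were at 1, the lowest value in the table, in every library, and 38 never exceeded 10 counts. Among 17709 rows of the whole table tested in the same edgeR quasi-likelihood fit with Benjamini-Hochberg adjustment, 87.9% differed somewhere among the 8 groups at an adjusted p below 0.05, and 80 of the 100 mitochondrial rows did. The median biological coefficient of variation was 0.122 for the mitochondrial rows and 0.165 for all rows.

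The first comparison set the extreme regimes, HLC against LLW, against each other as the mean of both labels. Relative to the other mitochondrial transcripts, cob, cox3 and atp9 rose and rps7 and atp8 fell; rpl2 rose as counted, but not when counted with its chromosome 2 copy. Of the 100 rows, 21 rose and 19 fell, while 55.8% of all rows in the table were called, 28.5% higher and 27.3% lower. The median log2 change was -0.012 over the mitochondrial rows and 0.015 over all rows. Without IT_HLC replicate 3 the counts were again 21 and 19. This step lies within the lettered library series. On the scale of the whole library 15 rose and 23 fell, with a median of -0.10.

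In complex V the direction differed by subunit. For atp8, a small subunit of the membrane part, replicates 1, 2 and 3 were at 1532, 1590 and 1733 in IT_LLW, at 1132, 937.8 and 1164 in IT_HLC, at 1305, 1367 and 1295 in SW_LLW and at 1227, 1241 and 1033 in SW_HLC. All HLC libraries lay below all LLW libraries of the same label. The log2 change was -0.38 ± 0.08 (SE; adjusted p = 0.000698, edgeR). For atp9, which forms the rotating ring, the values were 848.4, 808.9 and 742.5 in IT_LLW, 803.5, 864.2 and 981.4 in IT_HLC, 809.4, 766.8 and 693.6 in SW_LLW and 1178, 1175 and 1249 in SW_HLC. The groups overlapped in IT and were well apart in SW. The mean change was 0.40 ± 0.10 (adjusted p = 0.00144, edgeR). The other complex V rows did not pass, with 0.14 ± 0.08 for atp1 (adjusted p = 0.121, edgeR) and -0.02 ± 0.07 for atp6 (adjusted p = 0.844).

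In the mean of both labels, both complex IV rows that had a note and the complex III row rose. Further rows of these complexes may lie among those with no note. For cox3, a core subunit of cytochrome c oxidase, replicates 1, 2 and 3 were at 2826, 2477 and 3167 in IT_LLW, at 2559, 2636 and 2751 in IT_HLC, at 1657, 1726 and 1604 in SW_LLW and at 2996, 3146 and 2707 in SW_HLC. In IT the HLC libraries lay within the range of the LLW libraries, while in SW all HLC libraries lay above them. The mean change was 0.37 ± 0.11 (adjusted p = 0.00636, edgeR), and the difference between labels was itself called at 0.92 ± 0.21 (adjusted p = 0.00225). The cox2-like row ATMG01280, whose copy was 96.4% identical to cox2, changed by 0.21 ± 0.06 (adjusted p = 0.00824). On the whole-library scale that row was not called (0.12 ± 0.07, adjusted p = 0.123).

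The row of cob, the cytochrome b of complex III, stood at 1497, 1574 and 1511 in IT_LLW and at 1867, 1655 and 1689 in IT_HLC. In SW it stood at 1378, 1424 and 1380 in LLW and at 1915, 1950 and 1878 in HLC. HLC libraries lay above LLW libraries within both labels, and the change was 0.32 ± 0.07 (adjusted p = 0.000602, edgeR). ATMG00590, whose copy is noted as a cytochrome b/b6 protein and matched cob over 130 bases, rose by 0.48 ± 0.07 (adjusted p = 7.27e-06).

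Of the 3 complex I rows that had a note, 1 rose and 1 fell. The nad1 and nad2 rows each hold only part of their gene, so their changes need not be those of the whole transcripts. The nad1 row stood at 187.3, 188 and 173.6 in IT_LLW and at 181.5, 187.6 and 179.8 in IT_HLC, which overlapped. It stood at 147.9, 141.7 and 140.9 in SW_LLW and at 220.7, 188.3 and 226.6 in SW_HLC, which did not. Its mean change was 0.28 ± 0.07 (adjusted p = 0.00146, edgeR) and its difference between labels 0.56 ± 0.14 (adjusted p = 0.00294). The nad2 row changed by -0.20 ± 0.07 (adjusted p = 0.0237), a call kept in 21 of 24 fits that left out 1 library. The nad3 row changed by -0.03 ± 0.07 (adjusted p = 0.737).

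Among the ribosomal protein rows with a note, 3 of 5 rose, 1 fell and 1 was not called. The row of rpl2, a large-subunit protein, stood at 491.1, 463.2 and 454.6 in IT_LLW, at 648.6, 710.3 and 706.7 in IT_HLC, at 392, 405.2 and 405.7 in SW_LLW and at 634.2, 453.1 and 628.8 in SW_HLC. HLC lay above LLW within each label, by 0.53 ± 0.09 (adjusted p = 3.2e-05, edgeR). The count of its copy varied widely within groups, at 157, 159 and 1132 in IT_LLW, 2181, 388 and 177 in IT_HLC, 1365, 1279 and 1426 in SW_LLW and 232, 1093 and 1832 in SW_HLC. The copy changed by 0.03 ± 0.53 on the whole-library scale (adjusted p = 0.966). With the copy added, the change of rpl2 was 0.35 and not called (adjusted p = 0.0607). The small-subunit row rps7 moved the other way. It stood at 66.9, 72.6 and 67.9 in IT_LLW, at 35.8, 33.4 and 40.6 in IT_HLC, at 56.9, 52.7 and 41.9 in SW_LLW and at 36.3, 26.35 and 35.1 in SW_HLC. No HLC library reached an LLW library of its label, and the change was -0.78 ± 0.12 (adjusted p = 1.99e-05). The chromosome 2 copy of rps7 changed by -0.89 ± 0.11 on the whole-library scale, where rps7 itself changed by -0.86 ± 0.12.

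The rpl5 row rose by 0.34 ± 0.09 (adjusted p = 0.00424, edgeR) and rps4 by 0.29 ± 0.09 (adjusted p = 0.0124). Neither passed on the whole-library scale, with adjusted p = 0.0522 and adjusted p = 0.133. The rise of rpl5 was not shared by the labels. It stood at 325.7, 350.4 and 306.4 in IT_LLW and at 658.1, 457 and 499.6 in IT_HLC, but at 362.6, 327.6 and 342.5 in SW_LLW and at 350.8, 271.2 and 381.9 in SW_HLC, with a difference between labels of -0.76 ± 0.19 (adjusted p = 0.00342). The rps12 row changed by 0.01 ± 0.08 in the mean (adjusted p = 0.916), with a difference between labels of -0.70 ± 0.17 (adjusted p = 0.0029).

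**Figure D3:**
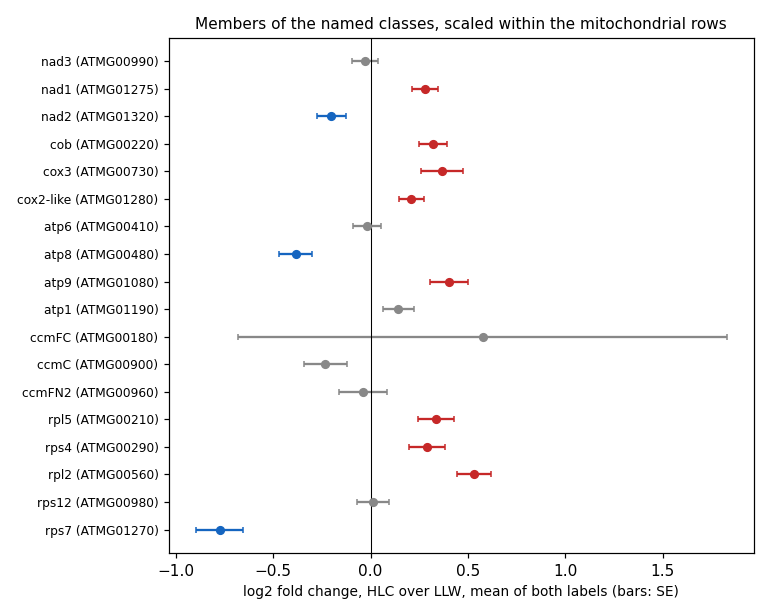
Change of the 18 rows of the named classes in HLC against LLW, mean of both labels, on the log2 scale with SE; red rows rose, blue rows fell and grey rows were not called at an adjusted p below 0.05. rps7 had the largest fall (-0.78) and rpl2 the largest rise among called rows (0.53), and the SE of ccmFC (1.26) spans most of the axis.

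Among the rows with no name, ATMG00830 rose by 0.77 ± 0.08 (adjusted p = 8.8e-08, edgeR) and ATMG00270 by 0.55 ± 0.09 (adjusted p = 1.63e-05). ATMG00530, noted as an unknown protein, changed by -1.29 ± 0.15 (adjusted p = 4.46e-07), from 10.3 to 12.7 scaled counts in the LLW libraries to 3.65 to 5.95 in the HLC libraries. ATMG00110 changed by -0.79 ± 0.11 (adjusted p = 3.63e-06). Of the 13 tested rows noted as unknown proteins 2 rose and 2 fell, of the 5 tested sources of a pseudogene 3 fell, and of the 58 tested rows with no note 9 rose and 11 fell. ATMG00610, noted as a putative membrane lipoprotein, rose by 0.79 ± 0.14 (adjusted p = 4.88e-05).

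The cytochrome c maturation rows that had a note did not pass in the mean of both labels, at -0.23 ± 0.11 for ccmC (adjusted p = 0.0806, edgeR), -0.04 ± 0.12 for ccmFN2 (adjusted p = 0.816) and 0.58 ± 1.26 for ccmFC (adjusted p = 0.72). On the whole-library scale ccmC was called lower, at -0.32 ± 0.11 (adjusted p = 0.0202). The ccmFC row switched between replicates. It was at the table minimum of 1 in 9 of 24 libraries and at 346 to 1248 counts in the other 15. In 5 of the 8 groups, libraries at 1 stood beside libraries at 346 or more. Among the mitochondrial rows ATMG00285 was the only other to go from 1 to over 100 counts within a group, with 287 counts in 1 library and 1 in the other 23. Of the copies, that of ccmFN2 did so, falling to 1 in 1 SW_HLW library.

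Among the named classes, ccmFN2 and ccmC differed most by label. The difference between labels in HLC against LLW asks whether SW changed otherwise than IT, and here it coincides with the nuclear transcript division described above. In it 26 rows were higher and 21 lower, with 37.1% of all rows called, 18.8% higher and 18.4% lower. Without IT_HLC replicate 3 the counts were 32 and 19, and on the whole-library scale 12 and 28. Without IT_HLC replicate 2 the total was 39 rows. The median log2 difference was 0.035 scaled within the mitochondrial rows and -0.31 on the whole-library scale.

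The ccmFN2 row encodes part of the haem lyase. It stood at 57.7, 63.2 and 53.0 in IT_LLW, at 156.1, 149.9 and 118.6 in IT_LLC, at 78.5, 82.2 and 82.5 in IT_HLW and at 137.1, 136.6 and 120.9 in IT_HLC. In SW it stood at 179.1, 160.8 and 164.1 in LLW, at 87.7, 139.1 and 145.1 in LLC, at 72.2, 87.1 and 71.5 in HLW and at 84.8, 51.4 and 73.9 in HLC. All libraries of IT_LLC, IT_HLC, SW_LLW and SW_LLC, the same groups that carried QQS, lay above all libraries of the other 4 groups. The gap was narrow, with SW_LLC replicate 1 at 87.7 and SW_HLW replicate 2 at 87.1. The HLC against LLW change was lower in SW than in IT by a log2 difference of -2.44 ± 0.25 (adjusted p = 2.41e-07, edgeR). Its chromosome 2 copy had a difference of -2.66 ± 0.71 and the row itself -2.79 ± 0.28 on the whole-library scale.

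ATMG01210, the source of a nuclear pseudogene, had the largest difference, -3.31 ± 0.37 (adjusted p = 7.84e-07, edgeR). It ran from 10.5 to 20.6 scaled counts in the groups with high ccmFN2, and from 3.79 to 7.65 in the other 4, without overlap. ATMG01220, noted as an unknown protein, had a difference of -2.22 ± 0.34 (adjusted p = 4.11e-05), at 18.6 to 36.3 against 8.15 to 15.7 in the same sets of groups. These levels were low, and ATMG01220 had 17 to 126 counts per library.

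The ccmC row, for a haem transfer protein, moved the other way. It stood at 355.6, 380.2 and 342.3 in IT_LLW, at 196.6, 170.3 and 133.8 in IT_LLC, at 299.6, 261.8 and 249 in IT_HLW and at 138.4, 184.1 and 226.3 in IT_HLC. In SW it stood at 245.4, 219.6 and 209.5 in LLW, at 125.9, 114.2 and 123.5 in LLC, at 233.7, 267.2 and 243.7 in HLW and at 366.6, 313.7 and 282.1 in HLC. IT_LLW and SW_HLC held the highest means, both LLC groups the lowest, and SW_LLW overlapped SW_HLW. Within IT_HLC, replicate 3 was the highest. The difference between labels was 1.49 ± 0.22 (adjusted p = 2.73e-05, edgeR). One of the 2 copies of ccmC had a difference of 1.07 ± 0.30 on the whole-library scale and the other 0.23 ± 0.35 (adjusted p = 0.65), beside 1.15 ± 0.23 for ccmC.

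ATMG00910, noted as an unknown protein, had a difference of 1.91 ± 0.29 (adjusted p = 3.12e-05, edgeR). With its chromosome 2 copy added, whose count ran from 0.63 to 7.09 of its own, the difference reversed to -1.02. Groups that the comparison did not use gave further values. Of the 26 rows with a higher difference, 17 had both HLW means above both LLC means, and 0 the reverse. Of the 21 with a lower difference, 15 had both LLC means above both HLW means, and 0 the reverse. Over the whole table the matching shares, on the library scale, were 55.8% of the 3325 rows called higher and 50.7% of the 3250 called lower, so this order is common to the table. Among the 53 mitochondrial rows not called, 12 had HLW above LLC and 13 LLC above HLW. The LLC and HLW groups lie in the numbered library series and differ in light, temperature and nuclear transcript set at once, which cannot be told apart.

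**Figure D4:**
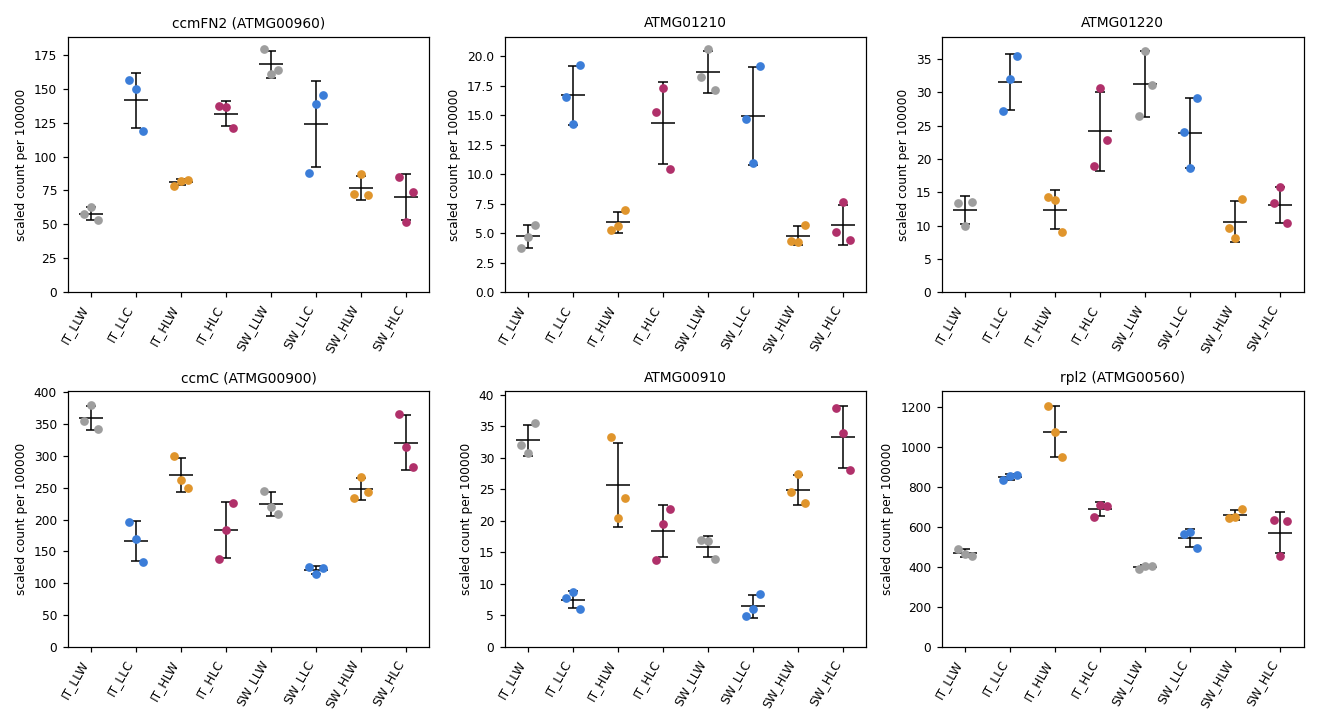
Scaled counts per 100000 in every library of ccmFN2, ATMG01210, ATMG01220, ccmC, ATMG00910 and rpl2, with the mean and SD of each group. In the upper row IT_LLC, IT_HLC, SW_LLW and SW_LLC stand above the other 4 groups without overlap, for ccmFN2 by a narrow gap. The ccmC and ATMG00910 rows were lowest in the LLC groups, and rpl2 was highest in IT_HLW. The 6 rows were chosen after their values were seen.

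The mean effect of light over both temperatures and labels called 23 rows higher and 25 lower, with 48.3% of all rows called, 22.7% higher and 25.7% lower. On the whole-library scale 14 were higher and 34 lower. In high light 3 of 4 groups carried the second nuclear set, against 1 of 4 in low light, so light and set are partly joined here. Among the named classes cob, cox3, atp9, nad1, rpl2 and ccmC rose, and nad2, rps7 and ccmFN2 fell. The rise of rpl2 was 0.42 ± 0.06 (adjusted p = 1.33e-05, edgeR), and that of cox3 was 0.35 ± 0.08 (adjusted p = 0.000813). ATMG00160 changed by -0.32 ± 0.05 (adjusted p = 2.55e-05), and ATMG00830 by 0.62 ± 0.06 (adjusted p = 4.18e-08). The fall of ccmFN2 was -0.39 ± 0.09 (adjusted p = 0.00101).

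Cool against warm temperature called 20 rows higher and 15 lower, with 56.4% of all rows called, 30.3% higher and 26.0% lower. Of the cool groups 3 of 4 carried the first nuclear set, against 1 of 4 of the warm groups. Named rows that rose were rpl5, rps4, cob, ccmFN2 and the cox2-like row, and those that fell were rps7, atp8 and ccmC. The largest was ccmC at -0.55 ± 0.08 (adjusted p = 7.8e-06, edgeR), followed by rps7 at -0.48 ± 0.09 (adjusted p = 9.73e-05). The rpl5 row changed by 0.29 ± 0.07 (adjusted p = 0.00086), and ccmFN2 by 0.35 ± 0.09 (adjusted p = 0.00187). The cox2-like row, at 0.12 ± 0.04 (adjusted p = 0.0316), was not called without IT_HLC replicate 3 (adjusted p = 0.0614) or with its copy added (adjusted p = 0.124).

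The SW temperature steps and the IT light steps stayed within a nuclear set while crossing the library series. Across them ccmFN2 had means of 168.0 in SW_LLW and 124.0 in SW_LLC, of 76.9 in SW_HLW and 70.0 in SW_HLC, of 57.96 in IT_LLW and 81.0 in IT_HLW, and of 141.5 in IT_LLC and 131.6 in IT_HLC. The rps7 row, by comparison, had means of 50.5 ± 7.73 (SD, n = 3) in SW_LLW and 55.6 ± 13.0 in SW_LLC, and of 58.4 ± 6.79 in SW_HLW and 32.6 ± 5.42 in SW_HLC. In IT it had 69.2 ± 3.02 in LLW and 60.8 ± 1.69 in HLW, and 49.4 ± 9.29 in LLC and 36.6 ± 3.68 in HLC. In both labels HLC was the lowest group for rps7.

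The interaction of light with temperature called 19 rows higher and 18 lower, with 37% of all rows called, 19.0% higher and 18.0% lower, and cannot be told apart from the library series. Without IT_HLC replicate 3 the counts were 17 and 26. Interaction values are the mean of the LLW and HLC groups minus the mean of the LLC and HLW groups. They are smaller than the difference between the light effects in cool and in warm. Among called rows of the named classes, rpl2, nad1 and atp8 had the largest interactions. The interaction was 0.47 ± 0.06 for atp8 (adjusted p = 6.35e-06, edgeR), -0.54 ± 0.06 for rpl2 (adjusted p = 2.08e-06; with its copy added -0.08, adjusted p = 0.623) and -0.49 ± 0.05 for nad1 (adjusted p = 3.13e-07). The nad1 row stood at 277.3 to 299.9 in IT_LLC and 246.8 to 283.8 in IT_HLW, above the 173.6 to 188 of IT_LLW and IT_HLC. In SW, it was at 195.5 to 212.1 in LLC and 239.4 to 281.5 in HLW, against 140.9 to 147.9 in LLW and 188.3 to 226.6 in HLC.

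**Figure D5:**
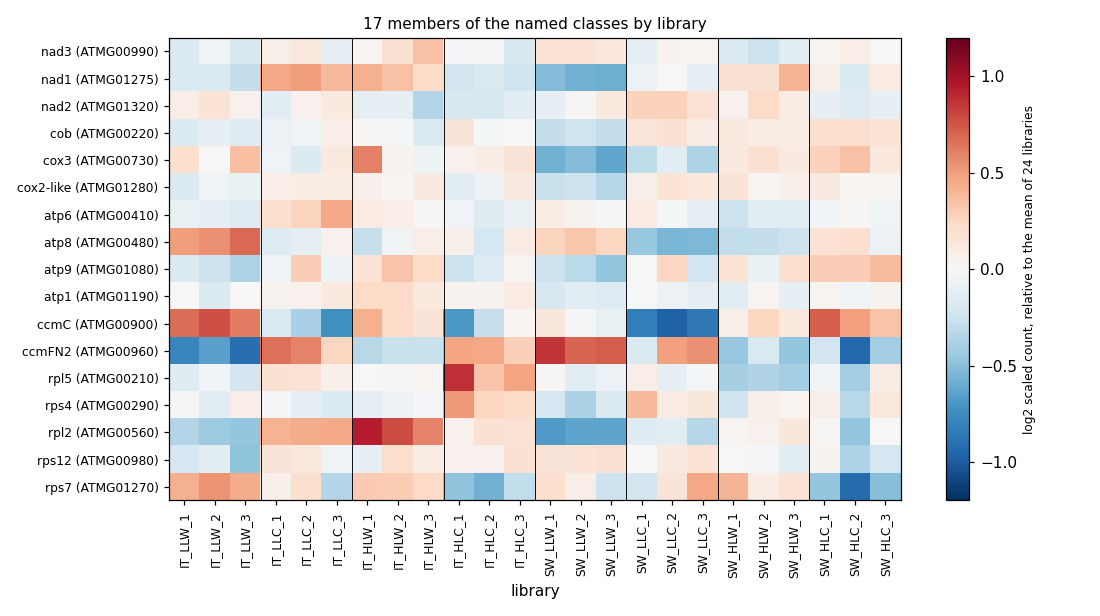
Scaled counts of 17 rows of the named classes in each library, on the log2 scale relative to each row's mean over 24 libraries; ccmFC, at the table minimum in 9 libraries, is left out. Black lines part the 8 groups. ccmC and ccmFN2 run opposite to each other in IT_LLW and in IT_LLC, rpl2 is highest in IT_HLW, and rps7 is low in both HLC groups.

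The labels SW and IT, averaged over the regimes, differed in 3 rows that were higher in SW and 10 that were lower, with 24.3% of all rows called, 12.2% higher and 12.1% lower. Without IT_HLC replicate 3 the split was 9 and 4, and on the whole-library scale 7 and 3. The rpl5 row was lower in SW by -0.30 ± 0.07 (adjusted p = 0.00306, edgeR). The rpl2 row was lower by -0.46 ± 0.06 (adjusted p = 3.27e-05), but not called with its copy added (-0.14, adjusted p = 0.363). ATMG00370, whose chromosome 2 copy was 97.6% identical to plastid ycf1 over 533 bases, was lower by -0.63 ± 0.08 (adjusted p = 1.25e-05). It stood at 260.9 to 368 in IT_LLW, IT_LLC and IT_HLW, against 132.7 to 227.2 in the matching SW groups, while both HLC groups overlapped at 178.8 to 272.1 and 229.6 to 249.9. ATMG00160 was higher in SW by 0.21 ± 0.05 (adjusted p = 0.00435). The nad1, atp8 and cox3 rows were called lower in SW, at -0.18, -0.21 and -0.23, but not without IT_HLC replicate 3 (adjusted p = 0.09, adjusted p = 0.146 and adjusted p = 0.124), nor with their copies added (adjusted p = 0.132, adjusted p = 0.0948 and adjusted p = 0.101).

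Within single regimes, each inside 1 library series, the rows called higher and lower in SW were 15 and 20 in LLW (25.5% of all rows called), 10 and 10 in LLC (42.8%), 3 and 9 in HLW (24.3%) and 10 and 20 in HLC (24.4%). Of all rows, 13.0% were higher and 12.6% lower in LLW, 22.7% and 20.1% in LLC, 10.1% and 14.2% in HLW, and 12.6% and 11.8% in HLC. On the whole-library scale they were 19 and 13, 9 and 9, 19 and 2, and 4 and 23. Without IT_HLC replicate 3, the HLC split was 16 and 14, and without IT_HLC replicate 2 the HLC total fell from 30 to 17 rows. In LLW and HLC the labels carried different nuclear sets, and ccmFN2 differed by 1.54 ± 0.18 in LLW (adjusted p = 2.33e-06, edgeR) and by -0.91 ± 0.17 in HLC (adjusted p = 0.000893). In LLC and HLW they carried the same set, and ccmFN2 differed by -0.19 ± 0.17 (adjusted p = 0.393) and -0.07 ± 0.18 (adjusted p = 0.823). In those same regimes rpl2 was lower in SW, by -0.64 ± 0.12 in LLC (adjusted p = 0.00037) and by -0.70 ± 0.12 in HLW (adjusted p = 0.000355). With its copy added these were -0.51 (adjusted p = 0.0662) and -0.56 (adjusted p = 0.0684).

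Nuclear genes that work with these transcripts were read on the whole-library scale. In HLC against LLW, where 28.5% of all rows rose, 7 of 12 nuclear complex I subunits rose and 1 fell, 3 of 5 complex II subunits rose, 5 of 9 of complex III, 1 of 6 of complex IV and 6 of 7 of complex V. Both cytochrome c genes rose, by 0.72 ± 0.13 for CYTC-2 (adjusted p = 8.4e-05, edgeR) and 0.43 ± 0.13 for CYTC-1 (adjusted p = 0.006). SDH1-1, the flavoprotein of succinate dehydrogenase, rose by 1.34 ± 0.11 (adjusted p = 4.73e-09), and EMB1467, a complex I subunit, by 1.00 ± 0.10 (adjusted p = 1.05e-07).

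AOX1A encodes the alternative oxidase, which passes electrons to oxygen without complexes III and IV. It went from 1.66 ± 0.294 to 15.4 ± 2.15 CPM (SD, n = 3) in the IT libraries. In the SW libraries it went from 4.89 ± 1.82 to 13.2 ± 0.767 CPM. Its change was 2.32 ± 0.20 (adjusted p = 9.46e-09, edgeR), and the other 4 alternative oxidase genes did not pass the low-count filter. The rise of AOX1A was smaller in SW, with a called difference between labels of -1.76. Of 5 tested type II NAD(P)H dehydrogenases, which bypass complex I, 4 rose, among them NDC1 by 0.95 ± 0.08 (adjusted p = 7.24e-09) and NDB2 by 0.97 ± 0.22 (adjusted p = 0.000993).

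The 2 listed nuclear genes of phage-type organelle RNA polymerases rose in HLC against LLW in the mean of both labels. Of these 2 genes, 1 had a difference between labels that was called lower in SW, and their median difference was -1.9. AT1G68990, for the mitochondrial enzyme, changed by 0.96 ± 0.19 (adjusted p = 0.000291, edgeR), and AT5G15700, for the enzyme of mitochondria and plastids, by 1.55 ± 0.23 (adjusted p = 1.09e-05). Across the labels AT1G68990 was lower in SW, by -1.52 ± 0.16 (adjusted p = 2.55e-06). It had means of 3.58, 16.8, 7.21 and 9.28 CPM in IT_LLW, IT_LLC, IT_HLW and IT_HLC and of 6.73, 1.72, 0.511 and 9.85 CPM in the matching SW groups. AT5G15700 had means of 0.664, 8.81, 2.49 and 5.45 CPM in IT and of 3.56, 1.48, 0.418 and 3.74 CPM in SW, in the same order of regimes. By these means both polymerase genes were lowest in SW_HLW and highest in IT_LLC, where the mitochondrial share of the library was 1.14% to 1.52% and 1.24% to 1.46%. For the nuclear partners no link to the mitochondrial rows was tested.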

How the data were processed

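The deposited table holds whole-number counts per locus for 24 libraries, which the authors made with HISAT and StringTie on TAIR10 and compared with DESeq2, per the submitters' processing notes; the sources used here give no versions. Its lowest value is 1, so an undetected row cannot be told from a single count. The members and the lists of nuclear partners were chosen with earlier results of these data known. Names came from notes on chromosome 2 copies in RefSeq TAIR10.1, checked by aligning the copies with blastn 2.17.0; of all identifiers 28932 matched a symbol and 4678 did not.

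Rows were kept by filterByExpr (minimum count 10, minimum total 15) and tested with edgeR 4.0.16 in R 4.3.3, by a quasi-likelihood test over all 17709 rows with 8 groups, with Benjamini-Hochberg adjustment at 0.05; ± after a log2 change is its SE. The scaling first set down, the mitochondrial total without ribosomal RNA rows, could not be used, because the sources do not identify those rows. TMM over the mitochondrial rows, one of the other scalings listed, took its place after the table was seen and before calls were compared. Other rows, and the nuclear partners, were scaled by TMM over the library. Class shares are percent of summed raw counts.

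Named rows are up to 5 per direction and comparison by smallest adjusted p, the 5 with the highest mean count, and the extremes of each class in HLC against LLW. Other rows of the named classes were added after their values were seen, as were ATMG00285 and the polymerase levels. Replicates of a group differed by 8.18 to 343 times the sampling noise (chi-square per degree of freedom), so no column copies another; this does not show that they came from separate plants. Alternatives with DESeq2 1.42.0, other scalings, no filter, 1 subtracted from every value, a replicate block and each library left out are given at the end.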

Additional observations from a re-analysis of the deposited data

Results flagged for a closer look

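A difference between the labels in the HLC against LLW change was called for 47 of 100 rows, against 37.1% of all rows in the table. The split was 26 higher and 21 lower, 32 and 19 without IT_HLC replicate 3, and 12 and 28 on the whole-library scale. By rule the 5 clearest rows in each direction are given, as log2 differences of SW minus IT. They were 1.78 for ATMG00930, 1.23 for ATMG00830, 1.49 for ATMG00900 (ccmC), 1.91 for ATMG00910 (-1.02 with its copy added) and 1.50 for ATMG00520. In the other direction they were -2.44 for ATMG00960 (ccmFN2), -3.31 for ATMG01210, -1.74 for ATMG00970, -1.11 for ATMG01170 and -2.22 for ATMG01220. These differences coincide with the nuclear transcript sets, from which they cannot be told apart.

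The effect of light differed between the temperatures in 37 of 100 rows, the same share as over all rows in the table (37%), and this difference coincides with the library series. Interaction values are the mean of LLW and HLC minus the mean of LLC and HLW. Their scale is smaller than that of the differences between labels. The clearest higher interactions were 2.39 for ATMG01370, 0.73 for ATMG00690, 0.43 for ATMG01000, 0.47 for ATMG00480 (atp8) and 0.84 for ATMG00910. The clearest lower ones were -0.49 for ATMG01275 (nad1), -0.54 for ATMG00560 (rpl2; -0.08 with its copy added), -0.41 for ATMG00660, -0.41 for ATMG01120 and -0.28 for ATMG00830. Both sets of differences were tested in the edgeR fit.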

How the results depend on the processing

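Of 131 calls on named rows, all were kept with the DESeq2 test and with the replicate block, 130 with DESeq2 size factors, 124 with 1 subtracted from every value, 123 without a filter, 123 with a total that leaves out the 5 highest rows, 114 with TMM over the whole library and 89 with the total of all mitochondrial rows. With chromosome 2 copies added, 118 were kept and ATMG00910 reversed, to -1.02 for the difference between labels and to -0.39 for SW against IT within HLC. The latter value was not called (adjusted p = 0.0504, edgeR). Among the 11 calls lost that way 5 were of rpl2. That alternative and the total without the 5 highest rows were chosen after seeing the data. Scaling by the total of all mitochondrial rows lowered the called rows to 23 for HLC against LLW, 6 for SW against IT, and 16, 12, 1 and 12 within LLW, LLC, HLW and HLC, and TMM over the library gave 21 within HLW; the cause was not tested. As shares of all mitochondrial counts, the log2 HLC over LLW ratio was 0.225 for complex III, against 0.165, and -0.0117 for complex V, against -0.0711.

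Leaving out each library in turn gave 35 to 42 called rows for HLC against LLW, 39 to 51 for the difference between labels, 45 to 51 for light, 29 to 38 for temperature, 9 to 13 for SW against IT, 35 to 43 for light by temperature and 78 to 83 for any difference. Within regimes it gave 23 to 40 in LLW (lowest without IT_LLW replicate 3), 12 to 22 in LLC (without IT_LLC replicate 3), 7 to 14 in HLW (without IT_HLW replicate 1) and 17 to 30 in HLC (17 without IT_HLC replicate 2, 19 without SW_HLC replicate 2). The log2 HLC over LLW ratio of the mitochondrial share, 0.175, ran from 0.068 to 0.251, that of complex I from -0.251 to -0.191, and that of cytochrome c maturation from -0.265 to -0.0653. The label difference of atp9 was kept in 11 of 24 such fits.

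The replicate numbers did not pair the samples: 8 of 84 same-numbered pairs had a correlation above 0.1 (-0.26 to 0.169), and 8 of 24 libraries correlated best with their own number. With the replicate block 39 rows were called for HLC against LLW, 45 for the difference between labels, 48 for light, 34 for temperature, 12 for SW against IT and 37 for light by temperature. Shares and totals without ribosomal RNA rows were not run, since the sources do not identify these rows.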
